A study of Mus musculus with 12 samples.

Results

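The 7 genes followed here encode intermediate filament proteins of the dorsal root ganglion: the neurofilament light, medium and heavy chains (Nefl, Nefm and Nefh), alpha-internexin (Ina), peripherin (Prph), vimentin (Vim) and nestin (Nes). They were chosen by symbol out of 24060 genes listed in the RNA-seq files, and no measured value entered the choice. Total RNA was sequenced from the dorsal root ganglion, where sensory neurons have their cell bodies, in male C57BL/6J mice that were adult (9 to 10 weeks). Of 12 libraries, 3 came from naive mice and 3 each from mice at 1, 3 and 7 days after spared nerve injury (SNI). In this model of neuropathic pain the tibial and common peroneal nerves are tied off and severed, and the sural nerve is left whole. Effects of the operation itself cannot be told apart from those of the nerve injury, since sham-operated mice were not analysed here. Whether a library stands for 1 mouse or for several is not stated, and the spread that the p-values rest on may be partly technical.

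Neurofilaments are polymers of the light, medium and heavy chains, with alpha-internexin or peripherin as a further subunit, and they fill the axon and set its calibre. In the ganglion the medium and heavy chains are markers of large neurons with myelinated axons, while peripherin is richest in small neurons with unmyelinated axons. Alpha-internexin is a neurofilament protein of developing and central neurons. Vimentin is the filament protein of satellite glia, Schwann cells, fibroblasts, endothelium and macrophages and is found in growing neurons, and nestin is known from neural progenitors, endothelium and Schwann cells.

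All 7 genes passed the filter on low values, an RPKM (reads scaled to gene length and library size) of at least 1 in at least 3 libraries, as did 14195 genes in all. Values below are RPKM, which are per length. The genes also differ in GC content, for example 46.5% for Vim and 60.8% for Prph in the longest transcript. What part length and GC content still have in comparisons between genes was not tested. Ranges of libraries are compared on RPKM values, before the scaling between libraries that the tests used. Library sizes ran from 13626893 to 17952865 reads. The reads behind a value ran from 160 to 448 for Ina, from 634 to 967 for Nes and from 2957 upward for the other genes, so counting error weighs most for Ina and Nes. The injury markers Atf3, Sprr1a and Gal were checked against the labels, and Atf3 was at 2.33 to 2.38 in naive libraries and at 44.1 to 104 in injured ones. Muscle transcripts stood out in naive replicate 1 (summed RPKM of 34.3) and day 7 replicate 2 (24.8), against at most 6.89 in the other libraries. Libraries also differed in how genes below 1500 bases compared with genes above 4000 bases. Relative to the mean of all libraries, the short genes minus the long genes gave between -0.321 (log2) in day 7 replicate 1 and 0.235 in day 3 replicate 2. In bulk tissue, fewer cells of a type and less RNA per cell cannot be told apart.

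On the mouse genome (mm10, GENCODE M21), the light and medium chain genes are neighbours on chromosome 14, with Nefl at 68083863 to 68089095 on the plus strand and Nefm at 68082590 to 68124846 on the minus strand. A long annotated transcript of Nefm reaches over Nefl, and 1108 exon bases are shared on opposite strands. Whether the counting used strand is not stated, so reads from those bases, if counted, could belong to either gene. The lengths behind the RPKM values were 2001 bases for Nefl and 3230 for Nefm, against 3380 and 5782 exon bases here. Shorter gene models were thus counted, and whether they hold the shared bases is not known. Nefh lies on chromosome 11 (4938754 to 4948064, minus strand), Prph on chromosome 15 (99055174 to 99058978, plus strand), Vim on chromosome 2 (13573927 to 13582826, plus strand) and Nes on chromosome 3 (87971078 to 87980451, plus strand). Ina lies on chromosome 19 (47014698 to 47025327, plus strand), where 456 exon bases are shared with the antisense gene Nt5c2. Nt5c2 itself was between 8.99 and 12 RPKM in all 12 libraries, with a log2 change of 0.05 at day 3 (SE 0.12, adjusted p = 0.866 in limma).

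Promoters are shown for 2 neuronal filament genes with a RefSeq promoter: Ina, which rose at day 3, and Prph, which passed no test against naive. Both are the 250 bases before the RefSeq start on the plus strand of GRCm38.p6, at chr19:47014431-47014680 for Ina and chr15:99054924-99055173 for Prph.
Ina: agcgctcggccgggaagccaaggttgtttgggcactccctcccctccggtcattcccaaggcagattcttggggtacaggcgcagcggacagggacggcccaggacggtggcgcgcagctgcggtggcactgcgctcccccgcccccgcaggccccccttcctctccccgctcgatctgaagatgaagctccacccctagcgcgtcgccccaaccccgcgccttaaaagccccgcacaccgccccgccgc
Prph: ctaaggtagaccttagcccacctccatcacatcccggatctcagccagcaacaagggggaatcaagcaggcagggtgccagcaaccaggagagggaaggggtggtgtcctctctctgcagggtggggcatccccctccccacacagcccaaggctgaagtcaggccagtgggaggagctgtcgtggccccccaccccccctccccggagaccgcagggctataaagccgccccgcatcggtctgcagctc
The GC content of these stretches was 70.8% for Ina and 65.2% for Prph. Motifs of factors known from injured sensory neurons were searched on both strands: TGANTCA (AP-1), TGACGTCA (the ATF and CRE site) and TTCNNNGAA (STAT). RefSeq promoters were matched for 4 of the 7 genes, Ina, Prph, Vim and Nes, and 0 of the 4 held any of the motifs in this window, so no base is in capitals. Of 32851 RefSeq promoters of the same length, 6.75%, 1.55% and 7.02% held the respective motifs. The Vim window lies within the first exon of a GENCODE transcript and is not printed.

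In naive ganglia the 3 neurofilament chains were the most abundant of the 7 transcripts, in the order light, medium, heavy, and this held in all 12 libraries. Together they made up 84.3% to 86% of the summed RPKM of the 7 genes in naive libraries. That share was 80.5% to 82% at day 1, 77.3% to 78.5% at day 3 and 77% to 78.7% at day 7, so that no injured library reached the naive range. The order of Prph and Vim also differed between groups: Prph was the higher in 3 of 3 naive libraries, and Vim was the higher in 9 of 9 injured libraries. How often other gene sets or pairs of genes separate the groups in these ways was not computed. For ratios to Nefl, 10.7% of 14194 genes were above all naive libraries in all 9 injured ones. In naive libraries the ranges of Prph (137.4 to 200.6) and Vim (114.5 to 159) overlapped, as did those of Nes (8.496 to 9.404) and Ina (4.667 to 9.389), the lowest of the 7. Ina exceeded Nes in 1 of 3 naive libraries, 0 of 3 at day 1, 3 of 3 at day 3 and 2 of 3 at day 7.

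**Figure D1:**
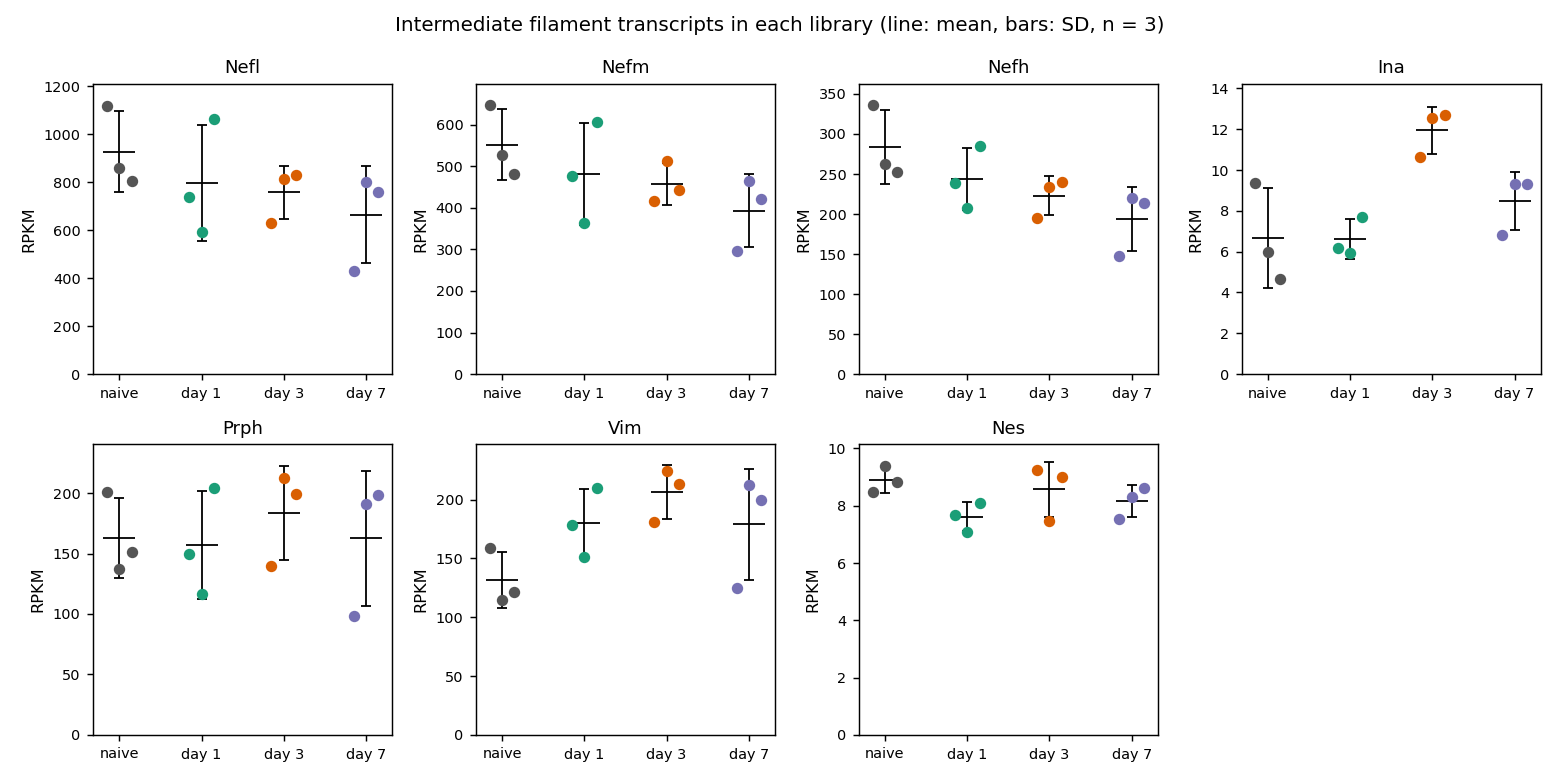
RPKM of the 7 genes (y axes, each from 0) in the naive, day 1, day 3 and day 7 libraries (x axis). Points are single libraries in replicate order, horizontal lines are means and bars are SD (n = 3); Ina and Vim stand above naive at day 3, and Nefh stands below naive at days 3 and 7.

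Compared with naive, 2 of the 7 genes rose at day 3, Ina and Vim, and 1 fell at day 7, Nefh, while 0 passed the test at day 1 (limma with Benjamini-Hochberg adjustment over 14195 genes, threshold 0.05). Of all genes tested, 3.43% passed at day 1, 5.67% at day 3 and 2.92% at day 7. The 3 comparisons share the same naive libraries. Between days, 0 of the 7 genes passed (background 0.507% for day 3 against day 1, 0.972% for day 7 against day 1). Between day 7 and day 3, 0 of all genes passed, with 716 at an unadjusted p under 0.05 and up to 4 under the other settings tried.

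Nefl, the light chain on which the other chains assemble, was the 4th to 12th most abundant of all transcripts in every library. It was at 1118, 859.5 and 804.2 RPKM in naive replicates 1, 2 and 3. The values were 736.5, 590.3 and 1063 at day 1, 630.3, 812.1 and 827.9 at day 3, and 431, 800.7 and 759 at day 7. All 3 day 7 libraries lay below the lowest naive library, the highest of them (800.7) only just, and days 1 and 3 overlapped naive. After the scaling used in the tests, the day 3 libraries also lay below all naive ones. Before scaling, 12.6% of all genes did so at day 3. Of all genes tested, 7.12% lay below naive in all 3 day 7 libraries. The log2 change was -0.24 at day 1 (95% interval -0.69 to 0.21), -0.32 at day 3 (-0.77 to 0.13) and -0.55 at day 7 (-1 to -0.1). None passed, with an adjusted p of 0.246 at day 7 (limma).

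Nefm, the medium chain, was at 647.4, 525.6 and 481.4 RPKM in naive libraries. It was at 475.1, 362.4 and 606 at day 1, 415.5, 512.6 and 442.7 at day 3, and 295.7, 463 and 420.2 at day 7. As for Nefl, the day 7 libraries lay below all naive ones and the earlier days overlapped naive. Its log2 change at day 7 was -0.53 (SE 0.17, adjusted p = 0.144, limma), against -0.21 at day 1 and -0.29 at day 3. After a correction for gene length and GC content the day 7 value was -0.52 with an adjusted p of 0.021, so the call depended on that step.

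Nefh, the heavy chain and a marker of large myelinated neurons, was the 1 neurofilament gene that fell past the threshold. Its log2 change at day 7 (-0.59) was close to those of Nefl (-0.55) and Nefm (-0.53), which did not pass. Naive libraries held 336.2, 262.9 and 252 RPKM, and day 1 libraries 239.2, 207.9 and 284.5. Day 3 libraries held 194.8, 234 and 240.3, and day 7 libraries 147.7, 219.9 and 213.7. Every day 3 and day 7 library lay below every naive library, while day 1 overlapped, and 12.6% of all genes lay below naive in this way at day 3. The mean was 283.7 ± 45.8 (SD, n = 3) in naive libraries and 193.8 ± 40 at day 7, a log2 change of -0.59 (SE 0.14, adjusted p = 0.0388, limma), with 0.599% of all genes called lower at day 7. At day 3 the log2 change was -0.37 (adjusted p = 0.172), and the adjusted p was 0.0219 with the length and GC correction. Neither the mean change of Nefh over the 3 days (-0.39, adjusted p = 0.0689) nor its test of any difference among the 4 groups (0.104) passed in limma. They passed under 4 and 3 of 13 other settings, respectively. The day 7 call of Nefh was lost when any 1 of 8 libraries was left out, all 3 naive ones, day 1 replicate 1, day 3 replicates 2 and 3 and day 7 replicates 1 and 3 (adjusted p of 0.0625 to 0.16), with the log2 change between -0.67 and -0.48 over all 12 such fits.

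Day 7 replicate 1 was the lowest of all 12 libraries for Nefl, Nefm, Nefh and Prph, and it also had the lowest ratio of short to long genes. Left out, the day 7 values were closer to naive for Nefl, at -0.34 (log2), and for Nefm, at -0.41, and neither passed. Nefh was at -0.48 without it. What part this library's ratio of short to long genes has in these values was not tested.

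Ina, the alpha-internexin gene, was close to naive at day 1 and highest at day 3. It was at 9.389, 5.987 and 4.667 RPKM in naive libraries and at 6.194, 5.916 and 7.718 at day 1. At day 3 it was at 10.63, 12.54 and 12.71, and at day 7 at 6.828, 9.317 and 9.323. The 3 day 3 libraries lay above all 9 others, and both day 1 and day 7 overlapped naive. At day 3, 13.8% of all genes were above naive in every library, and 8.66% were above day 1. The mean was 6.681 ± 2.44 in naive libraries and 11.96 ± 1.16 at day 3 (SD, n = 3), a log2 change of 0.82 (SE 0.18, adjusted p = 0.0127, limma), with 3.72% of all genes called higher at day 3. The test of any difference among the 4 groups also passed for Ina (adjusted p = 0.0327, with 4.78% of all genes passing), a call that was lost under 4 of the other settings (0.063 to 0.0997) and without any 1 of 7 libraries, namely naive replicate 2, day 1 replicates 1 and 2, day 3 replicates 1, 2 and 3 and day 7 replicate 3 (up to 0.125).

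The Ina value at day 3 was 0.78 (log2) above day 1 (SE 0.18), with an adjusted p of 0.0787 that did not pass, and that passed under 5 of the other settings (0.0126 to 0.0434). At day 7 it was 0.34 above naive (95% interval -0.04 to 0.72, adjusted p = 0.461) and 0.48 below day 3 (adjusted p = 0.928). The day 7 value was 0.56 above naive without naive replicate 1 and 0.14 without naive replicate 3. The day 3 call against naive was lost in 4 of the 12 fits that each left out 1 library. These were the fits without naive replicate 2 (adjusted p of 0.0602), naive replicate 3 (0.0648), replicate 2 of day 3 (0.0538) and replicate 3 of day 3 (0.0532), with log2 changes of 0.62 to 1.04 over the 12 fits. Naive replicate 1, the library richest in muscle transcripts, was the highest naive library for Ina.

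Prph, which encodes peripherin, spread as widely within groups as between them. It was at 200.6, 137.4 and 151.3 RPKM in naive libraries, 149.5, 116.3 and 204.5 at day 1, 139.5, 212.2 and 199.6 at day 3, and 98.22, 191.1 and 198.4 at day 7. All groups overlapped. The log2 changes were -0.07, 0.14 and -0.08 at days 1, 3 and 7, with 95% intervals of -0.56 to 0.42, -0.35 to 0.63 and -0.57 to 0.41. None passed. The lowest Prph library, day 7 replicate 1, was also lowest in short minus long genes (-0.321). Its highest library, day 3 replicate 2, was the highest there too (0.235). With the length and GC correction the SE of the day 1 change was 0.127, against 0.227 without it. The part of this difference between libraries in the spread of Prph was not tested.

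Vim, the filament gene of glia, fibroblasts and macrophages, rose at day 3, while its changes at days 1 and 7 did not pass. It was at 159, 114.5 and 121.2 RPKM in naive libraries and at 178.5, 151.1 and 209.5 at day 1. At day 3 it was at 180.8, 224.6 and 213.6, and at day 7 at 124.7, 212.7 and 199.4. Every day 3 library lay above every naive library, while days 1 and 7 overlapped naive by 1 library each, day 1 replicate 2 and day 7 replicate 1. After the scaling used in the tests, the day 1 libraries of Vim also lay above all naive ones. Before scaling, 11% of all genes lay above naive in this way at day 1 and 13.8% at day 3. The mean was 131.6 ± 24 in naive libraries, 179.7 ± 29.2 at day 1, 206.3 ± 22.8 at day 3 and 178.9 ± 47.4 at day 7 (SD, n = 3). The log2 change was 0.63 at day 3 (SE 0.16, adjusted p = 0.0323, limma), 0.46 at day 1 (adjusted p = 0.167) and 0.39 at day 7 (adjusted p = 0.289). The test of any difference among the 4 groups did not pass for Vim (adjusted p = 0.127, limma), though it did under 3 of 13 other settings. Averaged over the 3 days the change was 0.49 (SE 0.13, adjusted p = 0.0387), where 5.83% of all genes passed. That call was lost with no filter (adjusted p = 0.0626), no further scaling (0.107) and no robust moderation or trend (0.0617). It was also lost in 9 of the 12 fits without 1 library (adjusted p of 0.0506 to 0.232) and held in the fits that left out replicate 1 of the naive group, replicate 2 of day 1 or replicate 1 of day 7.

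The Vim call at day 3 was lost under 4 of the other settings (adjusted p of 0.053 to 0.0917) and when any 1 of 6 libraries was left out, naive replicates 2 and 3, day 1 replicate 1 and all 3 day 3 ones (0.0529 to 0.157), with log2 changes of 0.56 to 0.73. The day 1 change passed with the length and GC correction (adjusted p = 0.0267) and with array weights (0.00505). Without day 7 replicate 1 the day 7 change was 0.56, with an adjusted p of 0.0424. The summed RPKM of macrophage marker genes was 37.72 to 50.34 in naive libraries, 38.72 to 43.27 at day 1, 65.57 to 108.8 at day 3 and 67.61 to 135.6 at day 7, and 0 of the 8 macrophage markers tested rose at day 1 and 4 at day 3. Of all genes tested, 2.6% were called higher at day 1, 3.72% at day 3 and 2.32% at day 7. Vim at day 1 was 1.37 times the naive mean, a change that did not pass. Fibroblast markers summed to 171.3 to 264.3 in naive libraries and 202.1 to 258.4 at day 3, Schwann cell markers to 1053 to 1538 and 1168 to 1592, and satellite glia markers to 341.5 to 486.2 and 337.2 to 454.3. At day 3, 0 of 7 fibroblast, 0 of 9 Schwann cell and 1 of 8 satellite glia markers tested rose, and none of these markers was at 0 in all libraries. Of 9 markers of central glia and spinal cord, 3 were tested, and 1 was at 0 in all libraries. Aldh1l1 rose at days 1, 3 and 7, and Slc1a2 at days 1 and 3. Aqp4 was lower at each day (log2 change of -0.16, -0.37 and -0.38) and did not pass. The summed RPKM of the markers on this list was 5.945 to 7.76 in naive libraries, 8.327 to 11.06 at day 1, 8.941 to 9.977 at day 3 and 7.584 to 8.383 at day 7. The part of these cells in the Vim result was not tested.

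Nes, the nestin gene, had the narrowest spread of the 7. It was at 8.496, 9.404 and 8.841 RPKM in naive libraries, 7.661, 7.093 and 8.102 at day 1, 9.235, 7.475 and 9.021 at day 3, and 7.543, 8.322 and 8.637 at day 7. The day 1 libraries lay below the naive ones, as did those of 11.7% of all genes, and the later days overlapped naive. The log2 change was -0.21 at day 1 (95% interval -0.47 to 0.06, adjusted p = 0.485), -0.08 at day 3 and -0.15 at day 7 (limma), and none passed.

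**Figure D2:**
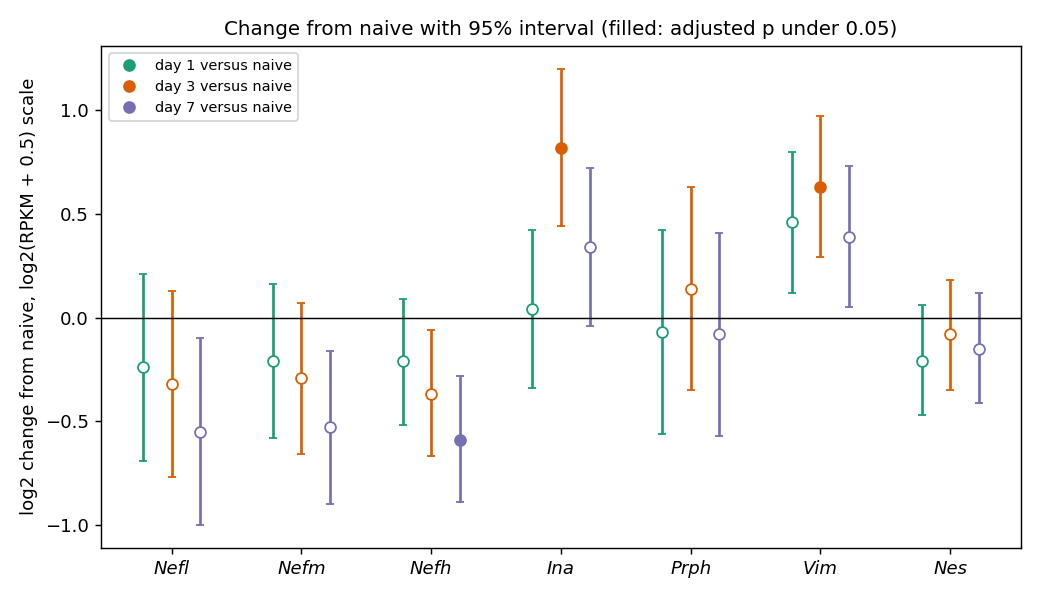
Log2 change from naive (y axis, on the log2(RPKM + 0.5) scale) for the 7 genes (x axis) at days 1, 3 and 7, with 95% intervals from limma. Filled points passed the adjusted threshold: Ina at 0.82 and Vim at 0.63 at day 3, and Nefh at -0.59 at day 7.

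Ratios within a library do not depend on how libraries are scaled to each other, and 7 ratios were tested with an exact permutation test over all 369600 assignments of the 12 libraries to 4 groups of 3, with Benjamini-Hochberg adjustment over the 7. The smallest p this design can give is 6.49e-05. The neurofilament chains kept about the same proportions: Nefm was 0.596 ± 0.0162 of Nefl in naive libraries, 0.61 ± 0.0377 at day 1, 0.608 ± 0.0653 at day 3 and 0.606 ± 0.0704 at day 7 (SD, n = 3, exact p = 0.991, adjusted 0.991). Nefh was 0.307 ± 0.0063 of Nefl in naive libraries, 0.315 ± 0.0431 at day 1, 0.296 ± 0.0115 at day 3 and 0.3 ± 0.0374 at day 7 (exact p = 0.876, adjusted 0.991). The Nefm ratio may hold reads of the shared bases.

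Vim to Nefl differed between groups. It was 0.142, 0.133 and 0.151 in naive libraries, 0.242, 0.256 and 0.197 at day 1, 0.287, 0.277 and 0.258 at day 3, and 0.289, 0.266 and 0.263 at day 7 (exact p = 0.000974, adjusted 0.00318). All 9 injured libraries lay above all naive ones, including day 7 replicate 1, in which both genes were low, and 10.7% of 14194 genes had ratios to Nefl of this kind. The 2 genes have similar counted lengths, 1834 bases for Vim and 2001 for Nefl.

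Ina to Nefl also differed. It was 0.0084, 0.00697 and 0.0058 in naive libraries, 0.00841, 0.01 and 0.00726 at day 1, 0.0169, 0.0154 and 0.0154 at day 3, and 0.0158, 0.0116 and 0.0123 at day 7 (exact p = 0.00136, adjusted 0.00318). The day 3 and day 7 libraries lay above all naive ones, and day 1 overlapped naive. The share of all genes with ratios to Nefl of this kind was not computed. The median gene's ratio to Nefl was also higher, by 0.32 (log2) at day 3 and 0.55 at day 7. Ina levels alone overlapped naive at day 7.

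Prph to Nefl was 0.179, 0.16 and 0.188 in naive libraries, 0.203, 0.197 and 0.192 at day 1, 0.221, 0.261 and 0.241 at day 3, and 0.228, 0.239 and 0.261 at day 7 (exact p = 0.0011, adjusted 0.00318). Every injured library was above every naive one. Since Nefl values were lower after injury, the ratio of most genes to Nefl was higher too, so every gene was set against Nefl in the same way with limma. The median gene's ratio to Nefl changed by 0.23, 0.32 and 0.55 (log2) at days 1, 3 and 7, and 3.2% of 14194 genes differed among the 4 groups. The Prph ratio changed by 0.17, 0.46 and 0.47, near the median gene, and did not pass there (adjusted p = 0.318). The Vim ratio changed by 0.7, 0.94 and 0.94 (adjusted p = 0.0324) and the Ina ratio by 0.28, 1.14 and 0.89 (adjusted p = 0.0177), above 91% and 88.9% of genes respectively at day 7. Nefm and Nefh stayed within 0.05 of no change, below the median gene at each day.

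Nes to Vim was 0.0695 ± 0.0146 in naive libraries and 0.0428 ± 0.00414, 0.0422 ± 0.0089 and 0.0477 ± 0.0113 at days 1, 3 and 7 (SD, n = 3), which did not pass (exact p = 0.0502, adjusted 0.0794). Prph to Ina was 25.6 ± 5.98 in naive libraries and 15.2 ± 1.94 at day 3 and did not pass either (exact p = 0.0567, adjusted 0.0794). It passed without day 7 replicate 1 (adjusted 0.0397).

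**Figure D3:**
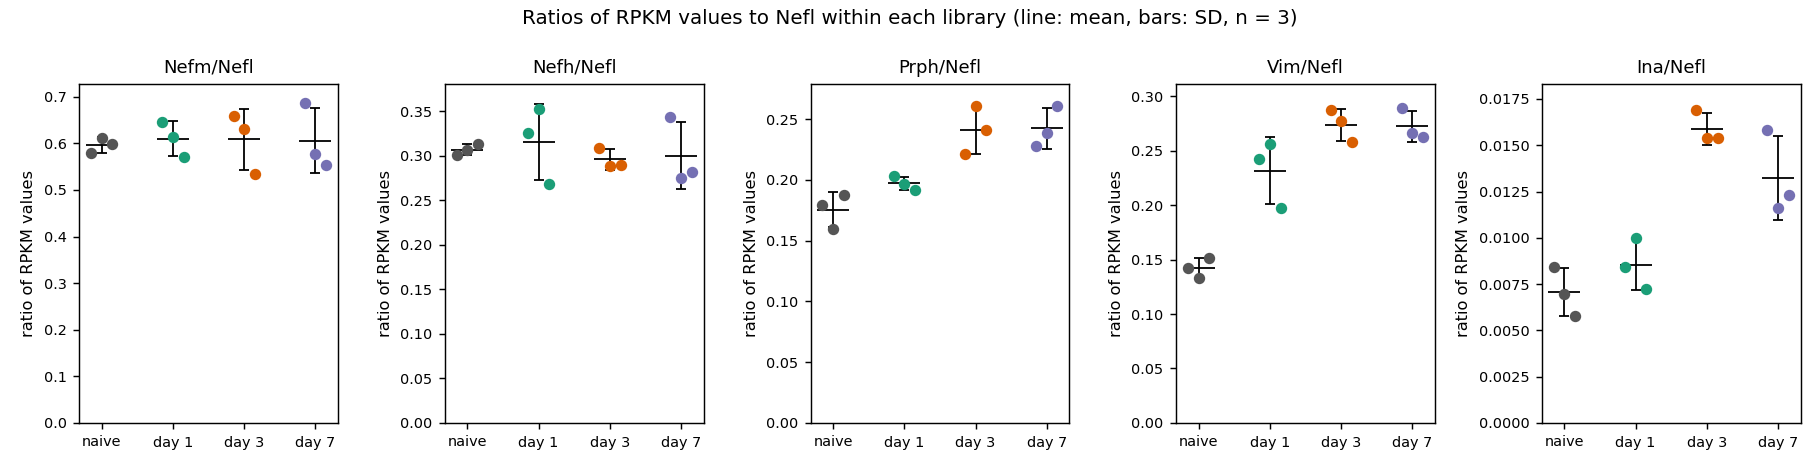
Ratio of RPKM values to Nefl (y axes, each from 0) for 5 genes in the 12 libraries, by group (x axis). Points are libraries, lines are means and bars are SD (n = 3); Nefm and Nefh are level near 0.6 and 0.3, and Vim is above the naive range in every injured library.

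**Figure D4:**
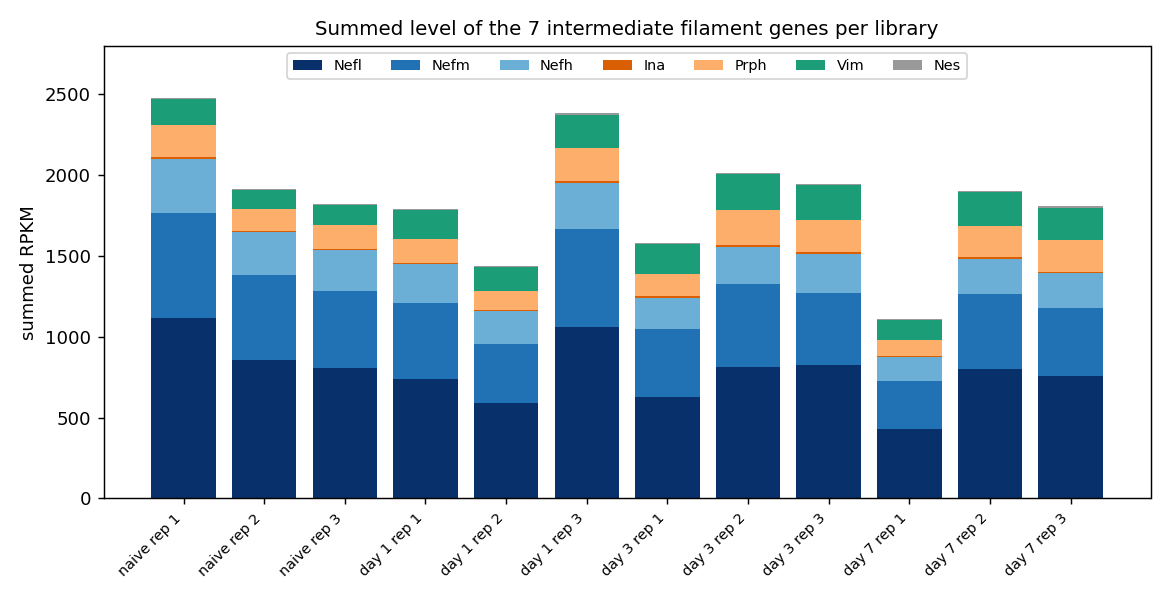
Summed RPKM (y axis) of the 7 genes in each library (x axis), stacked by gene. The sum runs from 1112 in day 7 replicate 1 to 2479 in naive replicate 1, and the neurofilament chains in blue hold 77% or more of every bar.

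How the levels of the 7 genes moved together across the 12 libraries is described here by Pearson's r of log2 values. These values include the differences between groups and those between libraries in short and long genes, and the genes share the libraries. The part of either in r was not tested. The 3 neurofilament chains had r of 0.948 (Nefl and Nefm), 0.93 (Nefl and Nefh) and 0.936 (Nefm and Nefh). Prph had r of 0.738 with Nefl, 0.594 with Nefm, 0.618 with Vim and 0.495 with Ina. Vim had r of 0.72 with Ina, 0.087 with Nefl and -0.526 with Nes.

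Among all genes tested, those most like Nefl were Atp1b1 (a sodium pump subunit, r of 0.971), Snap25 (a presynaptic membrane fusion protein, 0.967) and Ndufb8 (0.965). Snap25 was also among the 3 nearest genes for Nefm (0.967) and Nefh (0.967), and Nefh was near the synaptic vesicle gene Vamp1 (0.963). Ina was nearest to Rars (arginyl-tRNA synthetase, 0.936), and Prph to Slmo2 (0.985). Vim was nearest to Arpc2 (a subunit of the Arp2/3 actin complex, 0.991), followed by Spp1 (osteopontin, 0.972) and Sbds (0.971). For Nes no gene exceeded 0.853 (Cdc45).

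Of 19 other intermediate filament genes, among them lamins, keratins, synemin (Synm) and the glial filament gene Gfap, 9 passed the filter on low values and 0 changed at any day against naive (limma). Their median log2 change was -0.05, 0.02 and 0.01 at days 1, 3 and 7, beside -0.006, 0.002 and 0.002 over all genes. Synm, the most abundant of them, was at 66.57 ± 2.76 RPKM in naive libraries and 53.13 ± 3.19 at day 3. Gfap was at 0.046 to 0.786 RPKM and desmin (Des) at 0.0224 to 1.24, both below the filter.

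Of 34 genes for linkers, kinases, chaperones, motors and turnover factors of neurofilaments, 32 were tested, and their median log2 change was 0.01, 0.1 and -0.04 at days 1, 3 and 7. Against naive, 0 of the 32 changed at day 7 (limma).

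Hspb1, a small heat shock protein that binds intermediate filaments, rose at day 3. It was at 11.13, 5.146 and 5.837 RPKM in naive libraries, 16.47, 13.21 and 18.38 at day 1, 12.16, 22.13 and 17.87 at day 3, and 6.997, 15.1 and 15.68 at day 7. Day 1 and day 3 libraries lay above all naive ones, as did those of 11% and 13.8% of all genes respectively, and day 7 overlapped naive. Its log2 change was 1.19 at day 3 (SE 0.29, adjusted p = 0.0292, limma), where 3.72% of all genes were called higher. At day 1 it was 1.14 (adjusted p = 0.0505), which did not pass. That day 1 change passed under 8 of 14 other settings and in 3 of the 12 fits without 1 library. The day 3 call was lost without any 1 of 4 libraries, naive replicates 2 and 3 and day 3 replicates 2 and 3 (adjusted p of 0.0903 to 0.132).

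Markers of the neurons that carry these filaments were also measured. At day 3, 1.95% of all genes tested were called lower and 3.72% higher. Of 12 markers of large myelinated neurons, 2 fell at day 3, and their summed RPKM was 442.9 to 465.7 in naive libraries, 362.5 to 369.4 at day 3 and 367.2 to 396 at day 7. Of 12 markers of small unmyelinated neurons, 4 fell and 1 rose at day 3, with sums of 964 to 1127 in naive libraries and 732.8 to 963.8 at day 3. General neuronal markers summed to 1540 to 2034 in naive libraries, 1590 to 2080 at day 3, where 2 of 14 rose and 1 fell, and 1252 to 1996 at day 7. At day 7, where Nefh fell, 0 of 12 markers of either neuron class and 0 of 14 general neuronal markers passed. Only 0.599% of all genes were called lower at that day. The median log2 change at day 7 was -0.33 for large myelinated, -0.31 for small unmyelinated and -0.05 for general neuronal markers. Over all genes it was 0.002. The part of these markers' cells in the neurofilament values was not tested.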

How the data were processed

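RNA from dorsal root ganglia was amplified with a Nugen Ovation kit and made into TruSeq Nano libraries, per the labels' protocols. The tools named in the submitters' processing notes are STAR, HTSeq, limma, edgeR and bcl2fastq 2.17, with mm10 as build and without their roles. The unit of the values deposited by the authors, RPKM, was inferred from the values, while their annotation and strand setting are not known here. Steps in these RPKM values gave whole reads for 21595 of 21597 detected genes (99.99%, tolerance 0.05 reads).

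RPKM values were scaled by trimmed means of log ratios (30% of ratios and 5% of levels trimmed) and taken as log2(RPKM + 0.5), a scale that understates changes of low genes. limma 3.58.1 in R 4.3.3, with a variance trend and robust moderation, was fitted to all 12 libraries with 4 group means (8 residual degrees of freedom). Two-sided p-values were adjusted by Benjamini-Hochberg over 14195 genes. The code was tested on simulated data. Genes were named as follows: the 7 genes, the 3 most correlated with each, up to 4 per list, and Atf3, Sprr1a and Gal as label checks. The 7 genes were set by symbol, while the lists and the label checks were chosen with earlier results of these data known. Other pseudocounts, filters, scalings, voom on recovered reads, libraries left out and corrections for gene length and GC content were tried. The result for 1 gene of the list of linkers and turnover factors is not reported here.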

Additional observations from a re-analysis of the deposited data

How the results depend on the processing

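Each of 56 values for the 7 genes was recomputed under other settings, 1442 values in all. Of these 1358 kept the call or its absence, 53 lost the call and 31 gained it. In 0 did the direction reverse where either fit passed. Values that passed in neither fit count as kept even where the sign changed. Prph at day 7, for example, ran from -0.21 to 0.173 (log2) when 1 library was left out. The cause of lost and gained calls was not tested. Fits on only the groups compared do not apply to the 3-day mean or the 4-group test. The correction for gene length and GC content, array weights, the fits without both libraries rich in muscle transcripts and the limma fit of ratios to Nefl were chosen after seeing the data.

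Counts of genes called over all genes (487 at day 1, 805 at day 3, 415 at day 7, 72 for day 3 against day 1, 0 for day 7 against day 3, 138 for day 7 against day 1, 828 for the mean of the 3 days and 679 for any difference) moved by over 1.5 times as follows. With the length and GC correction they were 866, 1358, 842, 168, 2, 291, 1457 and 1245, in that order. With array weights they were 1844, 1954 and 831 for days 1, 3 and 7, 349 for day 3 against day 1, 293 for day 7 against day 1, 2221 for the mean and 2105 for any difference. Without the libraries rich in muscle transcripts they were 277 at day 1, 165 at day 7, 46 for day 3 against day 1, 41 for day 7 against day 1, 438 for the mean and 405 for any difference. With only the groups compared they were 258 at day 7 and 27 for day 7 against day 1. The voom fit gave 147 for day 3 against day 1 and 238 for day 7 against day 1, the RPKM filter of 5 gave 47 for day 3 against day 1, and no filter gave 4 for day 7 against day 3. Leaving out 1 library at a time gave 218 to 615 at day 1, 449 to 1082 at day 3, 235 to 521 at day 7, 13 to 106 for day 3 against day 1, 0 to 2 for day 7 against day 3, 54 to 117 for day 7 against day 1, 439 to 1173 for the mean and 383 to 902 for any difference.

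Replicate numbers did not pair the libraries: of 18 same-numbered pairs, 3 correlated above 0.1 (-0.34 to 0.234), and 4 of 12 libraries correlated best with their own number. With the replicate block the counts were 31 for day 3 against day 1 and 91 for day 7 against day 1, and, together with the length and GC correction, 655 at day 7 and 3 for day 7 against day 3. With the replicate block alone the adjusted p was 0.0622 for Vim at day 3 (log2 change 0.63), 0.0825 for Nefh at day 7 (-0.59), 0.0715 for Vim over the 3 days (0.49), 0.0742 for Ina among the 4 groups (largest difference 0.82) and 0.069 for Hspb1 at day 3 (1.19).

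Of the calls for the 7 genes, Nefh at day 7 and Vim at day 3 were also lost with no filter (adjusted p of 0.051 and 0.053), no further scaling (0.135 and 0.0917) and no robust moderation or trend (0.0538 and 0.0533). Nefh at day 7 was lost with only the groups compared (0.157) and without the libraries rich in muscle transcripts (0.164). The latter also ended the call of Vim over the 3 days (0.0554). Hspb1 at day 3 was lost with no further scaling (0.0597) and with only the groups compared (0.0502). Ina at day 3 passed in all 14 settings that left out no single library (0.000587 to 0.04).

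Spreads of group means of the ratios (log2) when 1 library was left out were 0.0133 to 0.113 for Nefm to Nefl, 0.0541 to 0.194 for Nefh to Nefl, 1.02 to 1.25 for Ina to Nefl, 0.399 to 0.516 for Prph to Nefl, 0.899 to 0.988 for Vim to Nefl, 0.584 to 0.889 for Nes to Vim and 0.57 to 0.776 for Prph to Ina. The Ina, Prph and Vim ratios to Nefl passed in each such test. In the limma fit of all genes against Nefl, the Prph ratio (0.466) no longer passed. With 3 libraries a group and amplified reads, the precision rests on the number of libraries, not on depth.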
